A study of Mus musculus with 6 samples.

Results

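Amino acid transporters of the solute carrier families Slc1a, Slc3a, Slc6a, Slc7a, Slc36a, Slc38a and Slc43a were followed in m1102, a mouse ovarian surface epithelial line. Members were taken by symbol, as every gene whose name begins with one of these 7 family stems followed by a number. The rule found 64 genes among the 35688 rows of the table, none of them repeated. Of these, 21 averaged 1 TPM or more across the 6 libraries and were tested, among 12257 genes tested in all.

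The 3 treated libraries came from m1102 cells given 10 ng/mL TGFB1, a cytokine known for inducing matrix production, for 4 days before RNA extraction, and the 3 control libraries from untreated m1102 cells. Both groups grew in alpha-minimum essential medium with fetal bovine serum, ITSS and EGF, so the growth factor EGF was present in the controls too. All libraries are of 1 cell line, and no source used here says that the samples of a group were separately treated cultures. What the p-values weigh is therefore the variation among these samples, and it may be only technical. The deposited abundances have the TPM scale, which corrects for transcript length, so levels can be compared between genes. Read depth cannot be had from these values, so no interval for counting error is printed.

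Mammalian cells import and exchange amino acids through carriers with overlapping substrates. Sodium-coupled carriers such as those of the Slc38a and Slc1a families load the cell with glutamine, alanine or glutamate. Exchangers of the Slc7a family then trade these for leucine, arginine or cystine. Many such exchangers are light chains that reach the cell surface only with a heavy chain of the Slc3a family, to which they are disulfide-linked. Carriers on the lysosome release amino acids from broken-down protein and take part in the control of the growth kinase mTORC1, while ATF4 is the transcription factor that raises many of these genes when amino acids are short.

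After TGFB1, 5 transporter genes rose: the taurine carrier Slc6a6, the glutamate carrier Slc1a6, the cystine-glutamate exchanger Slc7a11, the cationic and neutral exchanger Slc7a6 and Slc38a10. The heavy chain Slc3a2, the most abundant of all the members, and the large neutral carrier Slc43a2 fell. Mean abundance ratios, TGFB1 over untreated, ran from 0.492 for Slc43a2 to 2.03 for Slc6a6. Calls are genes with a limma adjusted p below 0.05 (Benjamini-Hochberg over all 12257 genes), and fold changes are log2 differences of TPM + 1, which understates the change of low genes. By this rule 23.8% of tested members were higher and 9.52% lower, against 15.8% and 14.6% of all tested genes. In all 33.3% of members were called, against 30.4% of all tested genes, so the share of members called was near the background. Treated and untreated values were fully apart for 11 of the 21 members, or 52.4%, against 49.8% of all tested genes. The median log2 fold change was 0.02 over the members and 0.02 over all tested genes. In bulk RNA, fewer cells that express a gene and less of its RNA per cell cannot be told apart.

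The treated libraries were not alike. On the first principal component, TGFB1 replicate 1 scored 46.6, TGFB1 replicates 2 and 3 scored 20.2 and 18.1, and untreated scores ran from -29.8 to -27.1. TGFB1 replicate 1 was the highest treated library for 13 of the 21 tested members, including all 5 that rose. Without it 6 members were called higher and 2 lower, the added one being Slc1a4. Among all genes 1937 were called higher and 1788 lower, which is 52% higher, and the split was 62.7% higher once libraries were rescaled leaving out mitochondrial genes and the 20 of highest abundance. Of 9 markers of ovarian surface epithelium, 8 had a mean of at least 1 TPM, and their summed abundance lay between 774 and 1118 TPM in TGFB1 libraries and between 1637 and 1744 TPM in untreated ones. Wt1, Upk3b, Krt7, Krt18, Msln and Gpm6a were lower in every treated library, whereas Gata4, Muc16 and Lhx9 overlapped between groups. TGFB1 replicates 1, 2 and 3 were at 45.4, 139 and 150 TPM for Upk3b and at 5.22, 20.4 and 19.4 TPM for Muc16. Of 29 markers of 7 other cell types, 10 had a mean of at least 1 TPM, and Fshr, Dazl and Rbfox3 were listed at 0 in every library. The 4 stromal fibroblast markers summed to between 621 and 675 TPM with TGFB1 and between 1280 and 1503 TPM without, nearly all of it Dcn. Within that sum, Dcn and Lum (at most 0.2725 TPM in a library) were lower with TGFB1. Pdgfra was higher with TGFB1 (7.41 to 8.02 TPM, against 4.82 to 7.28 TPM without), and Nr2f2 overlapped between groups. The 4 steroidogenic theca markers, of which only Star exceeded a mean of 1 TPM, summed to between 79.8 and 182 TPM with TGFB1 and between 279.5 and 326 TPM without. The 5 immune markers, mostly Cd68, summed to between 7.75 and 10.1 TPM with TGFB1 and between 18.8 and 26.3 TPM without. The pan-leukocyte gene Ptprc stayed under 0.1 TPM. The 3 oocyte markers, almost wholly Ddx4, summed to between 6.12 and 8.93 TPM with TGFB1 and between 10.2 and 24.0 TPM without, and the 5 endothelial markers to between 1.71 and 1.94 TPM with TGFB1 and between 1.11 and 1.33 TPM without. The sums of the 5 granulosa markers (30.9 to 34.1 TPM with TGFB1 and 33.8 to 37.9 TPM without) overlapped between groups, as did those of the 3 neural markers, at most 2.10 TPM in any library. Within the granulosa sum, Foxl2 was higher with TGFB1 (22.3 to 23.3 TPM, against 17.4 to 19.6 TPM without). Inha was lower with TGFB1 (7.25 to 11.5 TPM, against 16.0 to 18.0 TPM without). The part of these marker differences in the changes of the transporter genes was not tested.

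**Figure D1:**
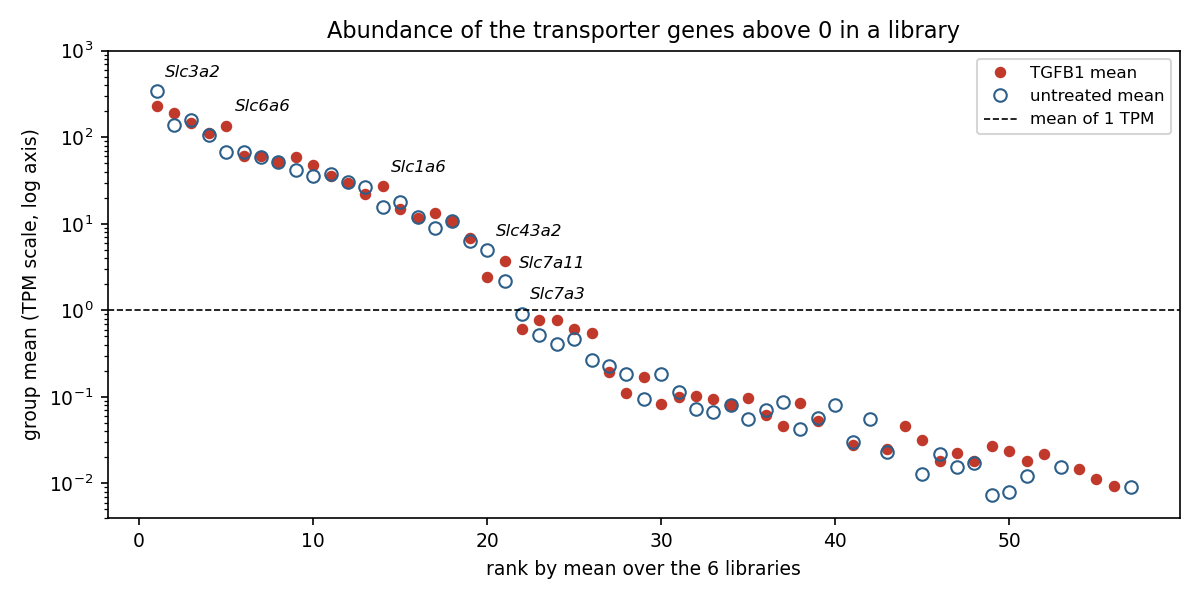
Group mean abundance (TPM scale, log axis) of the transporter genes with a value above 0 in a library, ordered on the x axis by their mean over the 6 libraries; filled points are TGFB1 means, open points untreated means, and a group mean of 0 is not drawn. The dashed line marks a mean of 1 TPM, which 21 genes reached, and the levels drop at that line to the mean of 0.759 TPM of Slc7a3.

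Abundance was concentrated in a few carriers. The 5 most abundant members, Slc3a2, Slc38a10, Slc6a8, Slc38a2 and Slc6a6, held 63.9% of the summed abundance of the 64 genes in TGFB1 libraries and 65.1% in untreated libraries. Summed over all members, abundance was 1281 ± 76.7 TPM with TGFB1 and 1245 ± 38.4 TPM without (mean ± SD, n = 3, as for every group mean below), so the groups differed by less than the spread among the treated libraries. The tested members nearest to the threshold of 1 TPM were Slc38a9, Slc43a2 and Slc7a11. Their means over the 6 libraries were 6.64, 3.70 and 2.93 TPM. Just below the threshold stood Slc7a3, Slc7a7 and Slc3a1, with means of 0.759, 0.649 and 0.589 TPM.

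**Figure D2:**
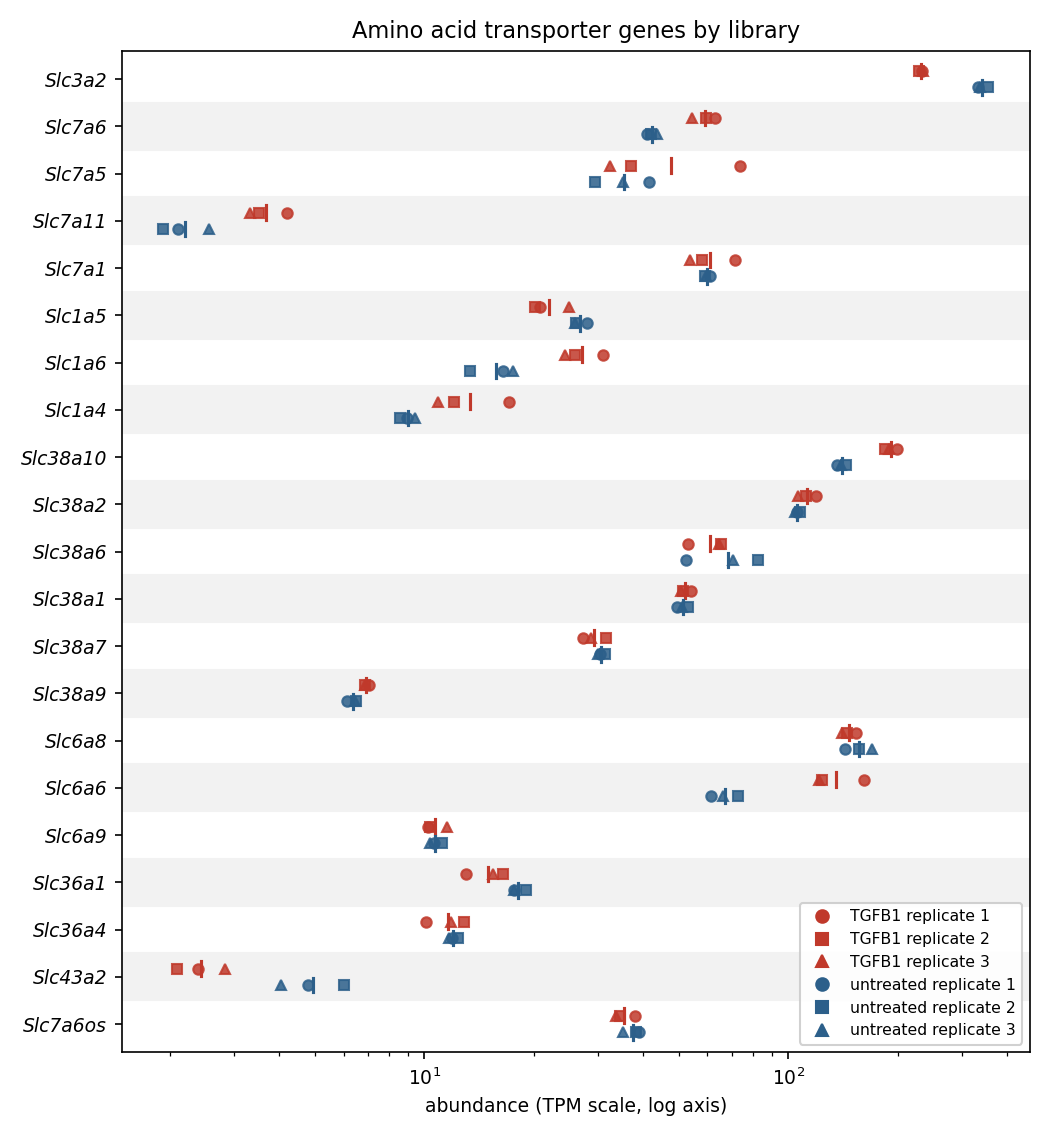
Abundance (TPM scale, log axis) of the 21 tested genes in each library, ordered down the page by transport role and then by mean; red marks are TGFB1 libraries, blue marks untreated ones, marker shape gives the replicate number and short vertical lines are group means. The treated and untreated Slc6a6 values lie apart, from 121 to 162 TPM against 61.5 to 72.9 TPM, whereas for Slc7a5 only TGFB1 replicate 1, at 73.7 TPM, lies above all untreated libraries.

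The heavy chain came first in abundance. Slc3a2 encodes 4F2hc, also called CD98, the partner of the light chains LAT1, y+LAT2 and xCT, and lies on chromosome 19 at 8706882 to 8723369 on the minus strand (GRCm38, GENCODE M21). It measured 234, 229 and 234 TPM in TGFB1 libraries, against 332, 355 and 336 TPM in untreated libraries. All 3 treated libraries were below all untreated ones, and the treated values were close together. Slc3a2 fell to a mean of 232 ± 2.69 TPM with TGFB1, against 341 ± 12.5 TPM without (log2 fold change -0.55, SE 0.051, limma adjusted p = 0.000898). The other heavy chain gene, Slc3a1, which encodes rBAT of the renal cystine carrier, was under 1 TPM on average and reached at most 1.04 TPM in a library.

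Among the light chains, 3 genes were above the threshold, and 2 of them rose, against 15.8% of all tested genes called higher. Slc7a6 encodes y+LAT2, which exchanges cationic amino acids such as arginine for neutral amino acids and sodium. Its plus-strand locus spans 106168857 to 106198706 of chromosome 8. It measured 62.9, 59.5 and 54.6 TPM in TGFB1 libraries, against 41.0, 42.0 and 43.7 TPM in untreated libraries. The groups did not overlap, and Slc7a6 rose (log2 fold change 0.47, SE 0.071, limma adjusted p = 0.00444).

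Slc7a11 encodes xCT, the light chain that imports cystine in exchange for glutamate and so feeds glutathione synthesis. It lies on chromosome 3 at 49892526 to 50443614 on the minus strand and was the least abundant of the tested members. Its values were 4.19, 3.51 and 3.32 TPM in TGFB1 libraries, against 2.10, 1.91 and 2.57 TPM in untreated libraries. The groups did not overlap, and the mean ratio was 1.67 (log2 fold change 0.55, SE 0.136, limma adjusted p = 0.0243). That call was lost with no filter, under quantile normalization, and without TGFB1 replicate 2, untreated replicate 1 or untreated replicate 2 (adjusted p up to 0.0743), and with a pseudocount of 5 the log2 fold change was 0.27.

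Slc7a5 encodes LAT1, which exchanges large neutral amino acids such as leucine and tryptophan. It measured 73.7, 37.0 and 32.5 TPM in TGFB1 libraries, against 41.4, 29.4 and 35.1 TPM in untreated libraries. TGFB1 replicate 1 stood alone above every other library, and the other treated values lay within the untreated range. Slc7a5 did not pass (log2 fold change 0.34, 95% interval -0.37 to 1.05, limma adjusted p = 0.42), and without TGFB1 replicate 1 its log2 fold change was -0.01. The remaining 7 listed light chain genes were under the threshold, among them Slc7a7, which encodes y+LAT1, with at most 0.992 TPM in a library, and the neutral exchanger Slc7a8, with at most 0.0481 TPM.

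Since 4F2hc serves several light chains, the summed abundance of the light chain genes was set beside that of Slc3a2 in each library. The light chain sum was 142, 101 and 91.0 TPM in TGFB1 libraries, against 85.2, 74.2 and 81.9 TPM in untreated libraries. The ratio of that sum to Slc3a2 was 0.607, 0.441 and 0.389 in TGFB1 libraries, against 0.257, 0.209 and 0.244 in untreated libraries. Heavy chain transcripts exceeded the light chain sum in every library, but by less with TGFB1, with a mean ratio of 0.479 ± 0.114 in treated and 0.236 ± 0.025 in untreated libraries. No test is given for this sum because its members were chosen with results of these data known. Slc7a6 made up 44.3%, 58.9% and 59.9% of the light chain sum in TGFB1 libraries, against 48.2%, 56.7% and 53.4% in untreated libraries, and these ranges overlap. Slc7a11 contributed between 2.95% and 3.65% with TGFB1 and between 2.47% and 3.14% without. Slc7a5, which was not called, made up 52.0%, 36.6% and 35.7% with TGFB1, against 48.6%, 39.7% and 42.9% without. In TGFB1 replicate 1, which had the highest sum and ratio, Slc7a5 gave 73.7 of the 142 TPM.

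**Figure D3:**
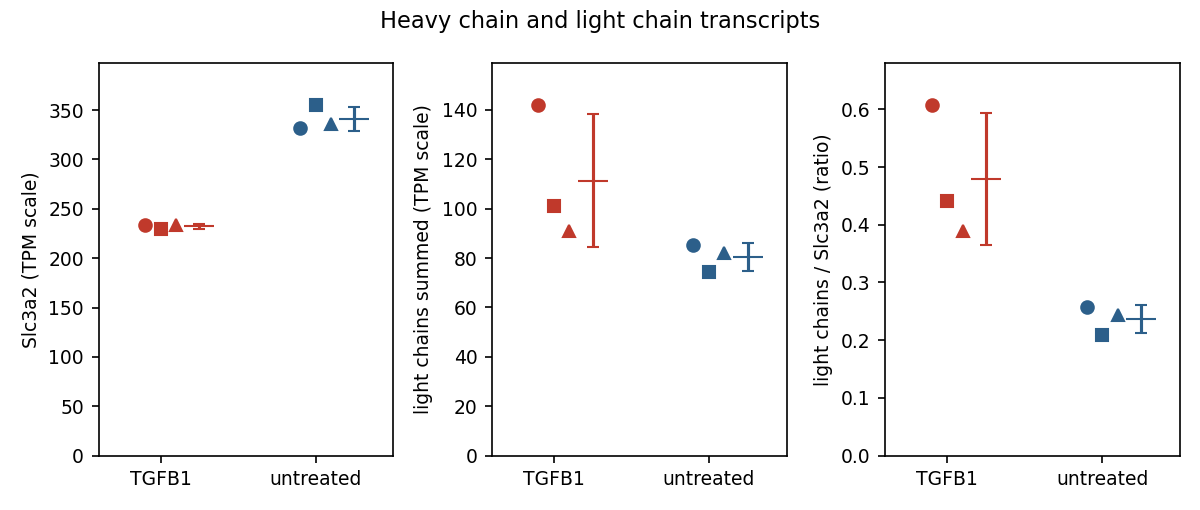
Abundance of the heavy chain gene Slc3a2 (left, TPM scale), of the light chain genes summed (middle, TPM scale) and the ratio of the sum to Slc3a2 (right) in each TGFB1 and untreated library; marker shape gives the replicate, and the bar beside each group is its mean with 1 SD. Slc3a2 lies between 229 and 234 TPM with TGFB1 and between 332 and 355 TPM without, and every treated ratio, from 0.389 to 0.607, is above the untreated ones.

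Of the cationic carriers, which work without a heavy chain, only Slc7a1, the arginine and lysine carrier CAT1, was above the threshold. It measured 71.4, 58.1 and 53.7 TPM in TGFB1 libraries, against 60.9, 59.1 and 59.3 TPM in untreated libraries. The treated libraries spread to both sides of the untreated ones, and Slc7a1 did not pass (log2 fold change 0.02, 95% interval -0.23 to 0.27). Slc7a2, which encodes CAT2, reached at most 0.0906 TPM in a library and Slc7a3, which encodes CAT3, at most 1.15 TPM.

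In the Slc1a family 1 of 3 tested genes rose, against 15.8% of all tested genes called higher. The groups did not overlap for any of the 3, with Slc1a6 and Slc1a4 above the untreated range and Slc1a5 below it. Of all tested genes 49.8% did not overlap. Slc1a6 encodes EAAT4, a sodium-coupled glutamate carrier best known from Purkinje cells of the cerebellum. Its plus-strand locus spans 78780496 to 78814765 of chromosome 10. It measured 30.9, 26.0 and 24.3 TPM in TGFB1 libraries, against 16.4, 13.3 and 17.5 TPM in untreated libraries. Slc1a6 rose, with a mean ratio of 1.72 (log2 fold change 0.75, SE 0.128, limma adjusted p = 0.00673), and none of its 31-base transcript words occurs in another annotated gene. Of the 3 neural markers, Gfap averaged 1.11 TPM over the 6 libraries and reached 2.10 TPM, Snap25 reached 0.0317 TPM and Rbfox3 was listed at 0. The glutamate carriers better known from glia and from epithelia were low: Slc1a3 (EAAT1) reached at most 0.343 TPM, Slc1a2 (EAAT2) 0.226 TPM and Slc1a1 (EAAT3) 0.0365 TPM.

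The neutral exchangers of the same family stood on opposite sides of the untreated range. Slc1a4 encodes ASCT1, which exchanges alanine, serine, cysteine and threonine, and measured 17.04, 12.1 and 10.9 TPM in TGFB1 libraries, against 8.96, 8.58 and 9.45 TPM in untreated libraries. All treated libraries were above all untreated ones, but Slc1a4 did not pass (log2 fold change 0.50, SE 0.156, limma adjusted p = 0.0507). It passed in 5 of 15 alternatives, including the fit without TGFB1 replicate 1 (log2 fold change 0.32, adjusted p = 0.034), and over the alternatives its adjusted p ran from 0.0338 to 0.134. Slc1a5 encodes ASCT2, an exchanger that carries glutamine, and measured 20.8, 20.2 and 24.96 TPM in TGFB1 libraries, against 28.0, 26.1 and 26.0 TPM in untreated libraries. All treated values were below all untreated ones, and Slc1a5 did not pass (log2 fold change -0.28, limma adjusted p = 0.065), except without TGFB1 replicate 3 (log2 fold change -0.37, adjusted p = 0.0257, against up to 0.183 in the other alternatives).

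The promoters of Slc7a11 and Slc1a4 are shown because, of the tested members with a promoter window, only they held the ATF4 and C/EBP composite element searched for, TGATGNAA on either strand. The windows run from 250 bases before to 50 bases after an annotated start and were available for 16 of the 21 tested members, in 21 windows (RefSeq, GRCm38.p6). No window was available for Slc6a6, Slc6a8, Slc38a1, Slc7a5 and Slc1a5, so the motif counts do not cover them. That of Slc7a11 is chr3:50443564-50443863 on the minus strand and that of Slc1a4 chr11:20332664-20332963 on the minus strand, each printed 5′ to 3′ along the gene with matches in capitals.
Slc7a11: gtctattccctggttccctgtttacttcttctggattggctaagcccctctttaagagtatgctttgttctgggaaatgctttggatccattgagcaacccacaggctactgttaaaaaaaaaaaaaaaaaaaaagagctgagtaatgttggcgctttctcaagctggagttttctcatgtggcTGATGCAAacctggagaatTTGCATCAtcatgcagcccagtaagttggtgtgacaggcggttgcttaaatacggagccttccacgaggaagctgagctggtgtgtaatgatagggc
Slc1a4: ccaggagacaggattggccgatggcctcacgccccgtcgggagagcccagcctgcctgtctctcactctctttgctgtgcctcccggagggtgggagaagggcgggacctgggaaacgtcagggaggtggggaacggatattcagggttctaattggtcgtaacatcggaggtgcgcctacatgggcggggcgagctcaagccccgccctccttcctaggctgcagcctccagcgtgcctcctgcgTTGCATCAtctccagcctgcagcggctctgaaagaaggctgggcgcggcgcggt

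In the Slc7a11 window the matches begin at -66 and, on the opposite strand, at -47 relative to the start, and in the Slc1a4 window the match begins at -4 on the opposite strand. Over all 32851 windows of this length, 3.97% hold this element. The antioxidant response element core TGACNNNGC was found in 7 of the 21 member windows, those of Slc7a6, Slc7a1, Slc6a9, Slc36a1 and Slc38a2, some of which have several windows, against 12.4% of all windows. In Slc7a6 both overlapping windows hold the same match, which begins at -1 from one annotated start. The SMAD-binding motif CAGACA was in 0 of the 21 member windows and in 21% of all windows. None of the matches overlaps a match of another of these motifs. A match of letters is a description of the window and does not show that a factor binds there.

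In the Slc38a family 1 of 6 tested genes rose (16.7%, against 15.8% of all tested genes). Slc38a10, whose product is related to the sodium-coupled neutral carriers, was the second most abundant member and lies on chromosome 11 at 120103960 to 120151346 on the minus strand. It measured 199, 185 and 189 TPM in TGFB1 libraries, against 136, 144 and 140 TPM in untreated libraries. The groups did not overlap, and Slc38a10 rose (log2 fold change 0.45, SE 0.056, limma adjusted p = 0.0024). A noncoding transcript on the opposite strand shares 5.72% of its exonic bases, and whether the authors' quantification used strand is not stated in these sources.

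The system A carriers did not pass. Slc38a2 encodes SNAT2, which takes up alanine, glutamine and other small neutral amino acids and is known for induction by amino acid shortage. It measured 119, 112 and 106 TPM in TGFB1 libraries, against 106, 107 and 104 TPM in untreated libraries. The lowest treated value fell within the untreated range, and the log2 fold change was 0.09 (95% interval -0.06 to 0.23). Slc38a1, which encodes the related glutamine carrier SNAT1, measured 54.1, 51.3 and 50.7 TPM in TGFB1 libraries, against 49.6, 53.2 and 51.1 TPM in untreated libraries. The groups overlapped throughout, with a log2 fold change of 0.02 (95% interval -0.12 to 0.16).

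The other tested members of the family did not pass either. Slc38a6 measured 53.0, 65.3 and 64.5 TPM in TGFB1 libraries, against 52.5, 82.4 and 70.4 TPM in untreated libraries, and its groups overlapped. Its values are uncertain, because 40.7% of its 31-base words also occur in other genes, and Noct alone holds 31.3% of its words. Slc38a7, which encodes the lysosomal glutamine exporter SNAT7, was at 29.2 ± 2.11 TPM with TGFB1 and 30.6 ± 0.711 TPM without. Slc38a9, which encodes the lysosomal arginine sensor that signals to mTORC1, was at 6.93 ± 0.087 TPM with TGFB1 and 6.36 ± 0.197 TPM without. Its groups did not overlap, but the log2 fold change of 0.11 (SE 0.079) did not pass (limma adjusted p = 0.339).

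In the Slc6a family 1 of 3 tested genes rose, against 15.8% of all tested genes called higher. Slc6a6 encodes TauT, which takes up taurine, an osmolyte that is not built into protein. Its plus-strand locus spans 91684053 to 91759066 of chromosome 6. It measured 162, 124 and 121 TPM in TGFB1 libraries, against 61.5, 72.9 and 66.3 TPM in untreated libraries. The lowest treated value was well above the highest untreated one. Slc6a6 rose to a mean of 136 ± 22.6 TPM with TGFB1, against 66.9 ± 5.68 TPM without (log2 fold change 0.999, SE 0.124, limma adjusted p = 0.00233). On the log2(TPM + 1) scale this was the largest rise among the tested members, also without TGFB1 replicate 1 (log2 fold change 0.87). As a ratio of means, 2.03 for Slc6a6 was close in size to the fall of Slc43a2 (0.492).

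The creatine carrier Slc6a8 and the glycine carrier Slc6a9 did not pass. Slc6a8 measured 154, 145 and 141 TPM in TGFB1 libraries, against 143, 156 and 169 TPM in untreated libraries, with overlapping groups (log2 fold change -0.09, 95% interval -0.27 to 0.09). Slc6a9, which encodes GlyT1, was at 10.7 ± 0.693 TPM with TGFB1 and 10.7 ± 0.384 TPM without. Its values are uncertain, because 26.1% of its 31-base words are shared with Ccdc24 on the opposite strand, a gene that averaged 0.645 TPM with TGFB1 and 0.883 TPM without.

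Of the proton-coupled carriers 0 of 2 tested genes were called in limma, against 30.4% of all tested genes, while 1 had an unadjusted p under 0.05. That gene was Slc36a1, which encodes PAT1, an exporter of small neutral amino acids from lysosomes, with 14.95 ± 1.77 TPM with TGFB1 and 18.1 ± 0.777 TPM without. All 3 treated values were below the untreated ones, but the log2 fold change of -0.26 did not pass (adjusted p = 0.0827), and it was -0.17 without TGFB1 replicate 1. Slc36a4, which encodes PAT4, was at 11.6 ± 1.38 TPM with TGFB1 and 12.0 ± 0.322 TPM without.

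The facilitative carriers were under the threshold apart from Slc43a2, which encodes LAT4, a uniporter of large neutral amino acids such as leucine and phenylalanine, with a plus-strand locus spanning 75531694 to 75577575 of chromosome 11. It measured 2.39, 2.09 and 2.83 TPM in TGFB1 libraries, against 4.81, 6.02 and 4.03 TPM in untreated libraries. Every treated library was below every untreated one. Slc43a2 fell, with a mean ratio of 0.492 (log2 fold change -0.78, SE 0.158, limma adjusted p = 0.0121), and with a pseudocount of 5 the log2 fold change was -0.42. An antisense transcript shares 9.18% of its exonic bases. Slc43a1, which encodes LAT3, reached at most 0.0389 TPM in a library.

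**Figure D4:**
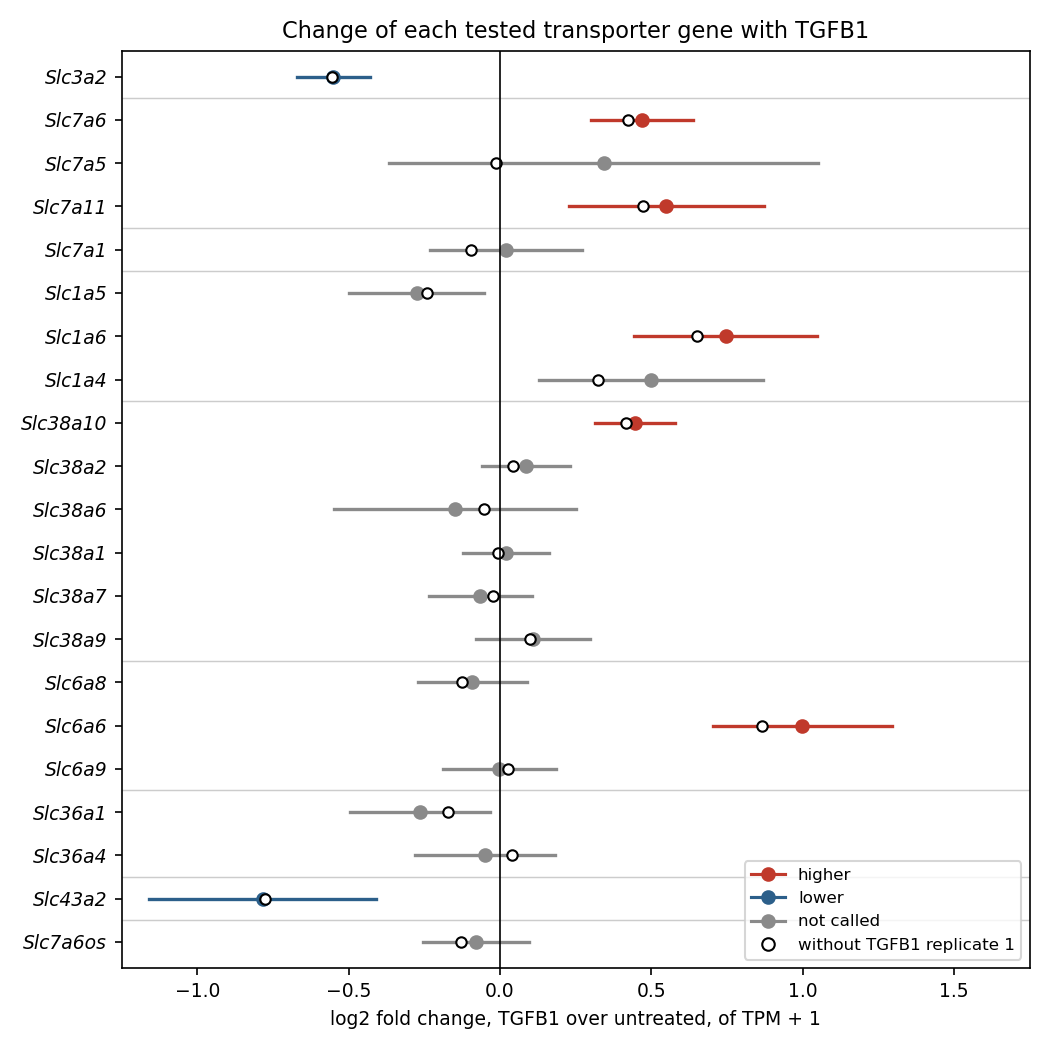
Log2 fold change of TPM + 1, TGFB1 over untreated (x axis), of the 21 tested genes grouped by transport role between grey lines; filled points are the fit on all 6 libraries with 95% intervals, red for genes called higher, blue for genes called lower and grey for genes not called, and open points are the fit without TGFB1 replicate 1. The changes run from -0.78 for Slc43a2 to 0.999 for Slc6a6, and the open point of Slc7a5 lies at -0.01, away from its filled point at 0.34.

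The rule on names also took Slc7a6os, which is no transporter. It encodes a protein related to the yeast RNA polymerase II import factor Iwr1, and it lies beside Slc7a6 on the opposite strand of chromosome 8, at 106200717 to 106210935, without overlapping it. Slc7a6os was at 35.3 ± 2.25 TPM with TGFB1 and 37.4 ± 1.95 TPM without, and it did not pass (log2 fold change -0.08, 95% interval -0.25 to 0.10). Without it, 20 tested transporter genes remain.

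The remaining 43 members were under the threshold. Of these, 10 had means between 0.107 and 0.759 TPM: besides Slc7a3, Slc7a7, Slc3a1, Slc1a3 and Slc1a2 they were Slc7a4, Slc38a3, Slc1a7, Slc6a14 and Slc38a11. Their highest library values were 0.756 TPM for Slc7a4, 0.728 TPM for the system N carrier Slc38a3, 0.185 TPM for Slc1a7, 0.231 TPM for Slc6a14 and 0.197 TPM for Slc38a11. Another 26 had lower means, with no library above 0.216 TPM. Among these were Slc43a3, Slc7a2, Slc7a13, Slc6a20b, Slc36a2, Slc6a12, Slc38a5, Slc7a8, Slc6a19, Slc7a14, Slc7a10, Slc6a2, Slc1a1, Slc6a20a, Slc6a17, Slc38a8, Slc6a15, Slc7a15, Slc43a1, Slc6a5, Slc6a3, Slc6a16, Slc6a18, Slc6a13 and the proline carrier Slc6a7. The last 7, Slc7a12, Slc7a9, Slc6a4, Slc6a11, Slc6a21, Slc36a3 and Slc38a4, were listed at 0 in every library. In a limma fit with no filter, 0 of the 36 low members with a value above 0 were called, and 3 had an unadjusted p under 0.05.

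Other genes of amino acid supply were read from the fit on all 6 libraries with the threshold of 1 TPM. They form lists of ATF4 targets and regulators, enzymes, lysosomal sensing genes and carriers of other families. The counts of these lists were not repeated in the alternatives. Of 32 tested ATF4 targets and regulators 4 were higher and 5 lower, with a median log2 fold change of -0.003. That is 12.5% higher and 15.6% lower, near the 15.8% and 14.6% of all tested genes. The stress-response gene Nupr1 rose (752 ± 43.3 TPM with TGFB1 and 155 ± 21.3 TPM without), as did the proline synthesis gene Pycr1 (11.2 ± 4.32 TPM with TGFB1 and 4.89 ± 0.674 TPM without). Pycr1 was at 16.1 TPM in TGFB1 replicate 1, against 8.85 and 8.48 TPM in TGFB1 replicates 2 and 3. Ddit3, which encodes CHOP, fell (62.8 ± 3.38 TPM with TGFB1 and 126 ± 19.6 TPM without), as did Cebpb (254 ± 83.6 TPM with TGFB1 and 456 ± 35.0 TPM without), of whose 31-base words 19.6% occur in other genes. Cebpb was at 157 TPM in TGFB1 replicate 1, against 306 and 298 TPM in TGFB1 replicates 2 and 3. Of 29 amino acid enzymes, 2 were higher and 8 lower (median -0.07), which is 6.9% higher and 27.6% lower, against 15.8% and 14.6% of all tested genes. Pycr1 is in both this list and that of ATF4 targets, and was among the higher enzymes. Among the lower ones was Got1, the cytosolic aspartate aminotransferase, at 77.3 ± 3.50 TPM with TGFB1 and 121 ± 2.84 TPM without. The alanine aminotransferase gene Gpt (log2 fold change -0.73) and the serine hydroxymethyltransferase gene Shmt1 (-0.61) fell too.

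Of 14 tested carriers of other families 0 were higher and 5 lower in limma, and at an unadjusted p under 0.05 the counts were 2 and 6 (median -0.02). The 35.7% called lower stood against 14.6% of all tested genes, and the 0 called higher against 15.8%. The aromatic amino acid carrier Slc16a10 fell to 8.63 ± 2.10 TPM with TGFB1, against 16.8 ± 1.34 TPM without (log2 fold change -0.91, adjusted p = 0.00863). The mitochondrial serine carrier Sfxn1 (log2 fold change -0.59), the mitochondrial glutamate carrier Slc25a22 (-0.42) and the aspartate-glutamate carrier Slc25a12 (-0.36) also fell. Of 32 genes of lysosomal mTORC1 sensing 1 was higher and 10 lower, with a median of -0.17 against 0.02 over all tested genes, and 31.2% were lower against 14.6% of all tested genes. The folliculin partner genes Fnip2 (log2 fold change -1.15) and Fnip1 (-0.44) and the lysosomal transcription factor gene Tfeb (-0.79) fell, and Depdc5, which encodes a subunit of the mTORC1-inhibiting GATOR1 complex, rose (0.46). All 5 genes of Ragulator, the scaffold that holds the Rag GTPases on the lysosome, were called lower, from -0.20 for Lamtor2 to -0.38 for Lamtor4, and they were singled out after their values were seen.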

How the data were processed

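Poly(A)-selected RNA of 6 libraries was measured, 3 of m1102 cells given TGFB1 and 3 of untreated cells. The authors deposited 1 table with a TPM-scale signal per gene and library; totals run from 983434 to 1026702, which shows a scaling between libraries whose method these sources do not give. Kallisto 0.44.0, sleuth 0.30.0 and the build GRCm38 appear in the submitters' processing notes without roles. Columns were tied to samples by group and replicate number.

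Values were fitted as log2(TPM + 1) with limma 3.58.1 in R 4.3.3 (intensity trend, two-sided, Benjamini-Hochberg over the 12257 genes averaging 1 TPM or more), a step tested on simulated data. The table and GENCODE M21 share 35022 gene IDs, and 666 were not matched. The 31-base words of each tested member's transcripts were compared with all other M21 genes in Python 3.11.15. The labels give no batch.

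Members and lists were chosen with earlier results of these data known. Named members are the 64, except for a low one that is not reported here, with values in every library for called genes and the 10 most abundant; each list names up to 4 called genes of largest change. Alternatives changed the pseudocount (0.1, 5), filter (none, 5 TPM), scaling, repeated rows, a replicate block and the libraries included.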

Additional observations from a re-analysis of the deposited data

How the results depend on the processing

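Members called higher numbered 5 and members called lower 2 in the fit on all libraries; leaving out 1 library in turn gave 4 to 6 higher and 2 to 3 lower. With a filter of 5 TPM 1 was lower, because Slc43a2 was then not tested. Over all genes, leaving out 1 library gave 1113 to 2024 higher and 917 to 1926 lower. Whether replicate numbers pair the samples is not known: deviations of same-numbered libraries correlated at 0.20, 0.15 and -0.04. TGFB1 replicates 1 and 2 correlated best with the untreated library of the same number, and TGFB1 replicate 3 with untreated replicate 2 (0.18). Deviations from means of 3 libraries cannot decide the question. With a replicate block 5 members were higher and 2 lower, and 1906 genes higher and 1924 lower. In all alternatives that tested them, called members kept their direction, and Slc7a11 was the only one to lose its call. Members near 0 changed sign: with median-of-ratios scaling Slc7a1 was at -0.0022 and Slc38a1 at -0.0026, and after rescaling Slc6a9 was at 0.044. With 1 library left out in turn, log2 fold changes ran from -0.096 to 0.106 for Slc7a1, from -0.0082 to 0.046 for Slc38a1, from -0.013 to 0.566 for Slc7a5, from -0.119 to 0.039 for Slc36a4 and from -0.050 to 0.026 for Slc6a9. None of these was called in any fit. The unknown depth limits the low members most.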
